A study of Mus musculus with 9 samples.

Results

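Trimethylation of lysine 27 on histone H3 (H3K27me3) is laid down by Polycomb enzymes and is found at silenced genes and across broad silent domains. The product of the X-linked gene Kdm6a is an enzyme that takes this mark off, and it is also part of methyltransferase complexes that work at enhancers. Acetylation of the same lysine (H3K27ac) marks active enhancers and promoters, and one lysine cannot carry both marks at once. Trimethylation of lysine 4 (H3K4me3) marks promoters.

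The regions described here carried H3K27me3 in both lines without Kdm6a and not in the line with it, and held no H3K4me3 in any line. They are called KO-only regions below, and they were chosen by H3K27me3 and H3K4me3 calls of these same libraries. The 3 H3K27me3 lists were joined wherever their autosomal regions overlapped or touched, which gave 30555 merged regions on chromosomes 1 to 19. Of these, 3135 (10.3%) were overlapped by both KO lists and not by the WT list, at 1 bp or more. A further filter, no overlap with a region of any of the 3 H3K4me3 lists, left 2424 KO-only regions. The same filter left 25618 of all merged regions, and 9.46% of those were KO-only regions. The 9.46% is the outcome of the choice of regions and has no replicate behind it.

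The study profiled 3 histone marks by chromatin immunoprecipitation and sequencing in 3 mouse pancreatic cancer cell lines. They were a female KDM6A-KO line, a male KDM6A-KO line and, to set these against, a male KDM6A-WT line. All 3 had a mixed C57BL/6-SV129 background and were kept untreated in a medium of F12/DMEM plus EGF. Each mark had 1 library per line, so the spread between replicates is unknown and no difference below has a test. There was no female WT line, so for female KO cells genotype and sex cannot be told apart. Each genotype and sex was a single line, so in male cells too genotype cannot be told apart from other differences between lines. The labels name no tumour driver, no Cre and no number of mice, and the deletion itself was not checked in these lists. In a population of cells, fewer cells with the mark and less mark per cell cannot be told apart.

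Reads in the autosomal H3K27me3 regions numbered 17976134 in female KO calls, 4804337 in male KO calls and 2394056 in the WT list. These sums grow with the length that was called and are not library depths. The H3K27me3 lists covered 13.3% and 9.60% of the autosomes in female and male KO cells, against 5.85% in WT. The lists hold only regions over the authors' threshold, so absence from the WT list says that no region was called there, not that the mark was missing. All shares of regions below carry 95% Wilson intervals, and medians carry 95% intervals from order statistics. They treat each region as independent, which neighbouring regions are not, and include no error other than that of counting.

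The KO-only regions were of middle width. Their merged length summed to 31.0 Mb, and the median width was 9.4 kb (9.0 to 9.8 kb). The middle range ran from 6.4 to 14.8 kb and the full range from 1.2 to 139.2 kb. Only 43 were at least 50 kb wide and 318 were under 5 kb. Among regions without H3K4me3, those of all 3 lists had a median width of 16.2 kb, those of female KO calls alone 6.0 kb, those of male KO calls alone 3.6 kb and those of the WT list alone 2.6 kb. The KO-only regions thus lay between the regions of all 3 lists and those of a single list. Width entered the rule, since a wider region meets more lists, and these values only describe the sets.

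The KO lists did not fill the regions equally. Female KO calls covered 92.8% of the summed length and male KO calls 56.6%. In the median region female KO calls covered 100% of the merged span and male KO calls 64.9%. A single female KO row overlapped 2292 of the 2424 regions, while 454 regions held several male KO rows, up to 10. Female KO calls covered more of the span in 1827 regions (75.4%), male KO calls covered more in 541 (22.3%), and both covered the same length in 56. In 1526 regions (63.0%) each KO list covered at least 50% of the span. Male KO calls covered less than 25% of the span in 230 regions (9.49%), and female KO calls did so in 8.

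Read density in the KO-only regions lay between that of regions in all 3 lists and that of regions in 1 list. The median KO-only region had 32.5 reads per covered kb in female KO calls, with a middle range of 28.0 to 39.8, and 15.8 in male KO calls, with a middle range of 14.3 to 17.7. Regions of all 3 lists had medians of 35.6 and 17.0 reads per kb in the same female and male KO calls. Regions of 1 KO list alone had 31.4 reads per kb in the female and 14.6 in the male. Regions of male KO calls and WT also lay in between, at 15.1 in male KO calls. Those of female KO calls and WT did not, at 30.4 in female KO calls. The order is a description, since these lists chose the regions. Per region, counts ran from 49 to 7889 reads with a median of 273 in female KO calls, and from 20 to 2342 with a median of 86 in male KO calls.

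**Figure D1:**
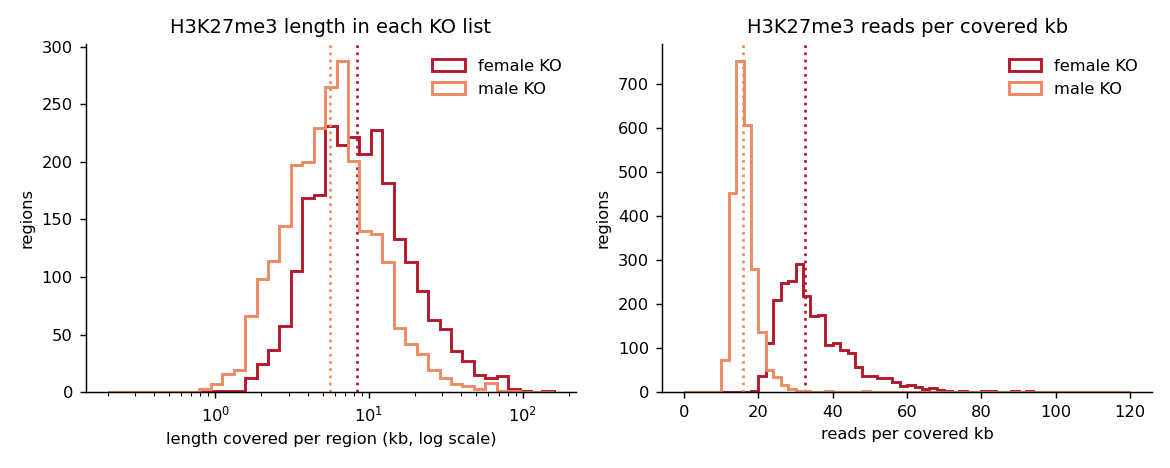
Length covered by H3K27me3 (left, kb on a log scale) and reads per covered kb (right) in each of the 2424 KO-only regions, as histograms for female and male KO calls, with dotted lines at the medians. Female KO calls cover more of a region (median 8.4 kb against 5.6 kb in male KO calls) and hold more reads per kb (32.5 against 15.8), and WT has no row at these regions.

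Reads per kb differed between the libraries where all 3 were called. Such values mix depth with enrichment, and the depth itself is unknown. Over the 101 Mb that all 3 H3K27me3 lists held, female KO calls had 67.1 reads per kb, male KO calls 23.1 and the WT list 17.6. Multiplying KO counts by 0.262 for the female and 0.761 for the male would bring these levels to WT. For each width class a WT floor was taken as the 5th percentile of reads per kb among WT rows. After scaling, 2050 of the 3060 male KO rows in KO-only regions (67.0%) reached that floor, against 69.9% of the other male KO rows. Of the 2574 female KO rows in KO-only regions, 255 (9.91%) reached it, against 20.6% of the other female KO rows. With both KO lists kept to rows over this floor, 231 regions met the rule, and 229 of them overlapped a KO-only region. Most female KO rows in these regions would thus lie under the WT floor once scaled to WT. The part of this difference in read level in the choice of KO-only regions was not tested.

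The rule has 2 edges, and the values on either side of each are given once. At the H3K4me3 edge, 70 KO-only regions had H3K4me3 within 1 kb, with a median width of 11.3 kb and 38.2 and 16.3 reads per kb in female and male KO calls. Just outside it, 79 regions of both KO lists and not WT were left out for H3K4me3 over at most 1 kb, with a median width of 13.2 kb and 40.2 and 17.3 reads per kb. At the WT edge, 75 KO-only regions had a WT H3K27me3 row within 1 kb, with a median width of 7.8 kb and 30.2 and 16.3 reads per kb. Just outside it, 49 regions without H3K4me3 were in all 3 lists with WT cover of at most 1 kb, and had a median width of 8.6 kb and 33.4 and 16.8 reads per kb. Both sets just outside were wider, and had more reads per kb, than the sets just inside.

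The share of KO regions that lacked a WT call differed widely between chromosomes. Of the 6908 regions without H3K4me3 that both KO lists held, 35.1% (34.0 to 36.2%) were absent from WT. On chromosome 4 this was 180 of 234 regions, 76.9% (71.1 to 81.9%), against 33.6% (32.5 to 34.8%) on the other autosomes. The next highest shares were 48.1% on chromosome 14, 47.1% on chromosome 16 and 46.2% on chromosome 13. The lowest were 12.9% on chromosome 19 (8.77 to 18.6%), 16.9% on chromosome 5 (13.9 to 20.4%) and 21.1% on chromosome 1 (17.6 to 25.05%). Intervals of chromosome 4 overlapped those of no other autosome.

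Counts per length gave another order, since chromosomes differ in how much H3K27me3 they hold. KO-only regions were densest on chromosome 11, with 203 regions or 1.67 per Mb, followed by chromosome 9 with 1.53, chromosome 14 with 1.53 and chromosome 13 with 1.43. Chromosome 4 had 1.16 per Mb, but its regions were wide, with a median of 12.6 kb, and summed to 3.63 Mb, the most of any chromosome. Chromosome 19 had 23 regions, 0.375 per Mb, and chromosome 1 had 97, or 0.492 per Mb. Regions of WT alone ran the other way, with 660 of 3888 on chromosome 1 (17.0%), 272 on chromosome 19 (6.996%) and 10 on chromosome 4 (0.257%).

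The read level of the other marks moved with these shares on most of the chromosomes named. H3K4me3 entered the rule only to leave regions out, and H3K27ac did not enter it. Over H3K4me3 bins that all 3 lines held, the log2 ratio of KO to WT reads on chromosome 4, each library scaled to its autosomal total, was 0.33 for female KO cells and 0.20 for male KO cells. Over shared H3K27ac bins the ratios there were 0.37 and 0.14, and over shared H3K27me3 bins 0.47 and 0.29. On chromosome 1 all 6 ratios were negative, from -0.18 to -0.12. On chromosome 19, in female and male KO cells, the ratios were -0.05 and -0.13 over H3K4me3, 0.05 and -0.10 over H3K27ac and -0.04 and -0.19 over H3K27me3, so female KO H3K27ac went the other way there. All 3 marks thus read higher on chromosome 4 and lower on chromosome 1 in both KO lines than in WT, also where all lines were called.

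Across the 19 chromosomes, the share absent from WT ran with the H3K4me3 ratio. Pearson's r was 0.86 for female KO cells and 0.89 for male KO cells, and Spearman's rho was 0.84 and 0.87. Without chromosome 4, r was 0.75 and 0.89 over 18 chromosomes. For the H3K27ac ratio r was 0.79 and 0.82, and 0.60 and 0.87 without chromosome 4. The H3K27me3 ratio itself ran less closely with the share in female KO cells, with r of 0.66 and rho of 0.38, and 0.36 and 0.27 without chromosome 4. In male KO cells these were 0.81 and 0.77, and 0.72 and 0.73 without chromosome 4. These are descriptions over chromosomes that share the same libraries, and the WT libraries enter both axes through the same cells. No p-value belongs to them.

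**Figure D2:**
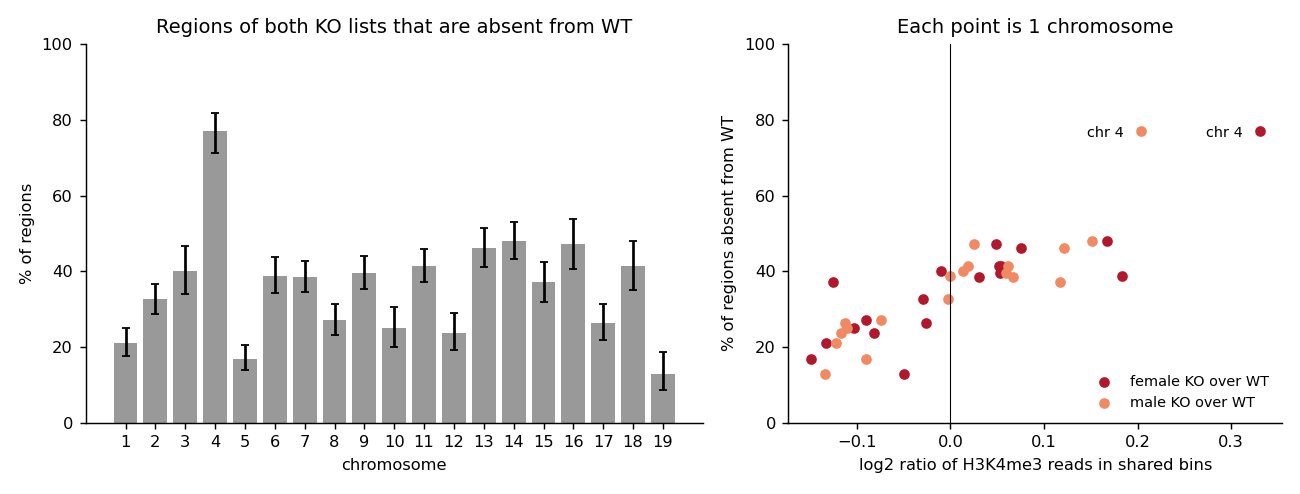
Left, the share of H3K27me3 regions of both KO lists, without H3K4me3, that are absent from WT on each chromosome, with 95% Wilson intervals. Right, the same share against the log2 ratio of KO to WT reads over H3K4me3 bins held by all 3 lines, 1 point per chromosome and KO line. Chromosome 4 stands apart at 76.9%, and chromosomes with negative ratios mostly lie lower, down to 12.9% on chromosome 19.

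The same held on a finer scale. In 433 windows of 5 Mb, the ratios over H3K4me3 and H3K27ac were averaged over both KO lines and the windows were split by this mean into 5 groups of near equal number. From the lowest to the highest group, with median log2 ratios of -0.17, -0.08, -0.01, 0.07 and 0.16, the share absent from WT was 20.5, 29.0, 33.6, 41.6 and 49.1%. The intervals of the lowest and highest groups, 18.3 to 22.9% and 46.3 to 51.9%, did not meet. Without chromosome 4 the shares were 20.3, 29.0, 33.6, 41.5 and 43.7%. Widths did not follow this order, with medians between 12.4 and 13.8 kb, and neither did the KO reads per kb, at 33.3 to 35.0 in female KO calls and 16.4 to 16.7 in male KO calls. In windows where the other marks read lower in WT relative to the KO lines, more H3K27me3 regions thus lacked a WT call. The part of the regional read level in the choice of KO-only regions was not tested. On the 8 chromosomes whose H3K4me3 ratios lay within 0.1 of 0 for both KO lines, chosen after seeing the data, 1184 of 3171 regions were absent from WT, 37.3% (35.7 to 39.0%), although single windows on them were not even. In the KO lists scaled to WT reads, 231 of 998 were absent from WT, 23.15% (20.6 to 25.9%).

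KO-only regions lay near WT H3K27me3 more often than regions of female KO calls alone. The median distance from a KO-only region to the nearest WT row was 23.7 kb (22.0 to 26.8 kb), with a middle range of 7.6 to 86.3 kb. For regions without H3K4me3 in male KO calls alone it was 29.4 kb (27.8 to 31.4 kb), and in female KO calls alone 44.8 kb (42.8 to 47.2 kb). Within 5 kb of WT lay 17.9% of KO-only regions (16.4 to 19.5%), 17.4% of male KO regions (16.6 to 18.4%) and 11.9% of female KO regions (11.02 to 12.8%). At 50 kb the shares were 65.5% (63.6 to 67.3%), 60.7% and 52.5%. The order of the sets is a description, because absence from WT chose all 3.

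Few KO-only regions were enclosed by WT H3K27me3 within 10 kb, and flanks were not counted for the other sets. WT rows lay within 10 kb on both sides of 173 regions (7.14%), on 1 side of 586 (24.2%) and on neither side of 1665 (68.7%). Within 50 kb these were 661 (27.3%), 926 (38.2%) and 837 (34.5%). The regions with WT on both sides within 50 kb were narrower, with a median of 7.6 kb, than those with WT on 1 side, at 9.6 kb, or on neither, at 11.2 kb. Regions far from any WT call were rare, with 18 of 2424 (0.743%) beyond 1 Mb.

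**Figure D3:**
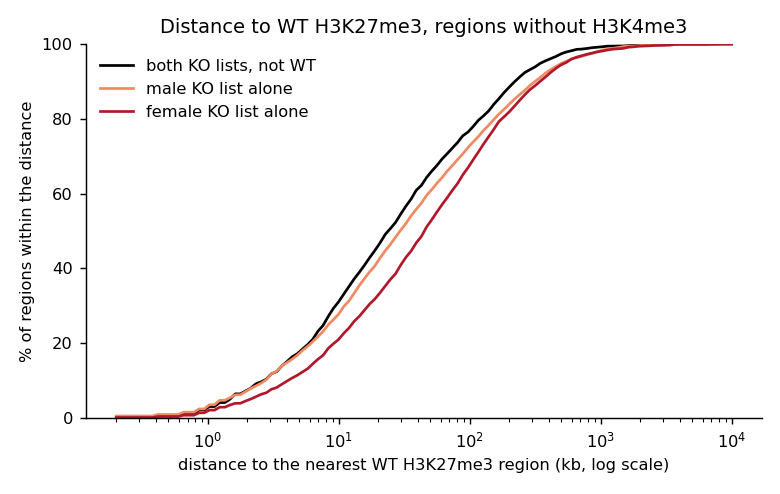
Share of H3K27me3 regions without H3K4me3 (y axis, %) that lie within a given distance of a WT H3K27me3 region (x axis, kb on a log scale), for KO-only regions and for regions of male or female KO calls alone. The curve of KO-only regions lies above that of female KO calls alone at 5 kb (17.9% against 11.9%) and at 50 kb (65.5% against 52.5%).

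KO-only regions were also neighbours of each other. Of the 4847 nearest merged regions on their 2 sides, 1222 (25.2%, 24.01 to 26.5%) were of the same kind (both KO lists, no WT call, whatever the H3K4me3), a pattern that 10.3% of all merged regions had. Regions of female KO calls alone were the most frequent neighbours, at 28.0%, and made up 21.2% of all merged regions. Regions of all 3 lists made up 27.1% of the neighbours and 22.9% of all merged regions. Regions of the WT list alone made up 2.93% of the neighbours and 13.1% of all, and regions of male KO calls alone 12.5 and 22.2%. Neighbours of the same pattern lay at a median gap of 2.6 kb. Such neighbours can be parts of 1 domain that the region caller left in pieces, and when rows closer than 1 kb were joined first, 1918 KO-only regions remained.

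Joined at gaps of up to 100 kb, the KO-only regions formed 1347 runs. Of these, 864 held a single region (35.6% of the regions), and 237 held at least 3, with 1068 regions (44.1%) among them. The run with the most regions was on chromosome 4, chr4:130550201-131256000, where 22 KO-only regions covered 477 kb of 706 kb and WT had 2 H3K27me3 rows. The next was chr14:77609601-78178400, with 16 regions over 155 kb of 569 kb and also 2 WT rows. Runs of 14 regions lay at chr7:136823801-137275400 and chr11:44488401-44841000, and a run of 13 at chr10:119030001-119294200, where WT had 7 rows. In the first 4 of these runs WT had fewer rows than there were KO-only regions by a wide margin, while in the last WT calls were interspersed.

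H3K27ac, which the rule did not use, lay at a small minority of KO-only regions in every line. It overlapped 214 of them in female KO cells, 8.83% (7.76 to 10.02%), 190 in male KO cells, 7.84% (6.83 to 8.98%), and 179 in WT, 7.38% (6.41 to 8.49%). Among all H3K27me3 regions without H3K4me3 the shares were 4.41, 4.36 and 3.48%. By length, H3K27ac took 4.07% of the KO-only regions in female KO cells, 2.30% in male KO cells and 2.34% in WT, against 2.37, 1.57 and 1.28% of all H3K27me3 regions without H3K4me3. Over all widths, by count and by length, H3K27ac was thus called more in KO-only regions than in that wider set, in each line. KO-only regions were also wider, with a median of 9.4 kb against 5.4 kb in that set. At 5 to under 10 kb their female KO, male KO and WT shares were 4.11, 3.37 and 3.16%, against 4.14, 3.54 and 2.96%. At 10 to under 20 kb they were 9.70, 8.44 and 7.56%, against 8.28, 8.52 and 6.63%. In neither class was there an excess in all lines. Under 5 kb and at 20 kb and over, the KO-only shares were higher in each line. Among the 231 regions left with KO lists scaled to WT reads, the shares over all widths were higher than at KO-only regions. They were 22.5% in female KO cells, 16.5% in male KO cells and 16% in WT. The shares over all H3K27me3 regions without H3K4me3 were not computed with the scaled lists. It is thus unknown whether the higher shares are particular to these regions. With 1 library each, a difference between KO and WT could not be tested. The H3K27ac lists also differed in size, covering 8.01% of the autosomes in female KO cells, 5.87% in male KO cells and 4.40% in WT. The part of list size in the order of the lines, and in the shares absent from a list below, was not tested.

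WT H3K27ac was called more often at KO-only regions than at regions where WT also had H3K27me3. Its share was 7.38% at KO-only regions and 3.97% (3.44 to 4.58%) at regions of all 3 lists, although regions of all 3 lists were wider. In widths of 10 to under 20 kb the shares were 7.56% (5.92 to 9.61%) and 1.40% (0.925 to 2.11%), and at 20 kb and over 23.4% (19.4 to 28.0%) and 8.47% (7.26 to 9.85%). Regions of female KO calls alone were higher than KO-only regions, at 9.32% (8.56 to 10.1%) over all widths and 18.6% (16.3 to 21.1%) at 10 to under 20 kb. Regions of male KO calls alone were at 0.362% (0.243 to 0.538%). The WT library takes part in this comparison on both marks, as regions of all 3 lists carry WT H3K27me3. The KO lines gave the same order, with female KO H3K27ac at 9.70% (7.83 to 12.0%) of KO-only regions and 3.49% (2.69 to 4.52%) of regions of all 3 lists in widths of 10 to under 20 kb, and male KO H3K27ac at 8.44 and 2.92%.

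**Figure D4:**
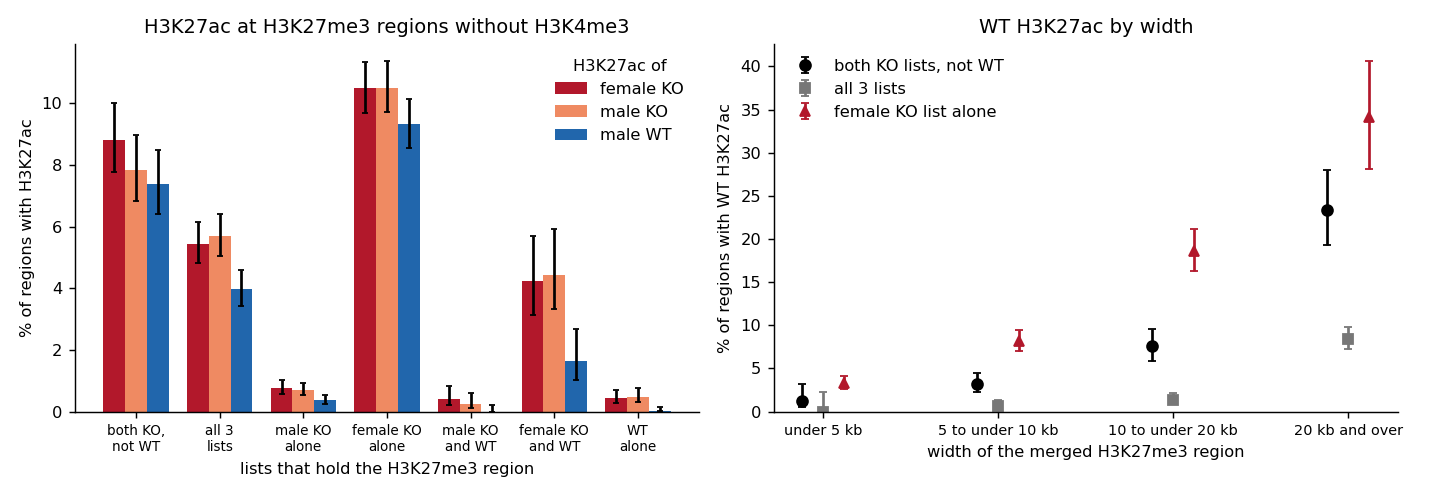
Left, share of H3K27me3 regions without H3K4me3 that overlap H3K27ac in each line, by the lists that hold the H3K27me3 region, with KO-only regions at the far left. Right, the share with WT H3K27ac by width of the merged region. Bars and points carry 95% Wilson intervals, and KO-only regions lie above regions of all 3 lists (7.38% against 3.97% for WT H3K27ac) and below regions of female KO calls alone (9.32%).

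The lines often differed in which KO-only regions carried H3K27ac. Of the 348 regions with H3K27ac in any line, 69 had it in all 3, 87 in female KO cells only, 49 in male KO cells only and 46 in WT only. It was in both KO lines and not WT at 33, in male KO cells and WT at 39 and in female KO cells and WT at 25. The 46 regions with H3K27ac in WT only, 1.90% of the KO-only regions (1.43 to 2.52%), are those where WT acetylation was called and both KO lines had H3K27me3 and no H3K27ac call. Among all H3K27me3 regions without H3K4me3 that pattern had 0.929% (0.819 to 1.05%), and among regions of female KO calls alone 2.34% (1.97 to 2.78%). The opposite pattern, H3K27ac in both KO lines and not WT, was at 1.36% of KO-only regions (0.971 to 1.91%). Among all H3K27me3 regions without H3K4me3 it was at 0.765% (0.666 to 0.879%), and among regions of female KO calls alone at 1.77% (1.45 to 2.16%). Over all widths, both patterns were thus more frequent at KO-only regions than in the whole set. The patterns were not split by width.

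Within the regions, H3K27ac lay differently against female and male KO H3K27me3 calls. Male KO H3K27ac covered 712 kb of the KO-only regions, and 33.5% of that length was under male KO H3K27me3, which covered 56.6% of all their length. Female KO H3K27ac covered 1261 kb, and 97.0% of it was under female KO H3K27me3, which covered 92.8% of their length. Of the 724 kb of WT H3K27ac, 98.0% was under female KO H3K27me3 and 31.8% under male KO H3K27me3. In male KO cells the acetylated stretches thus lay mostly outside the called H3K27me3, and in female KO cells mostly inside it. Male KO H3K27ac was under female KO H3K27me3 over 96.6% of its length, and female KO H3K27ac under male KO H3K27me3 over 47.8%. The contrast thus went with the H3K27me3 list, whichever line gave the H3K27ac. Under female KO H3K27me3 all shares were near the 92.8% that it covered, and under male KO H3K27me3 all were below the 56.6%. Different alleles, nucleosomes or cells of the culture cannot be told apart in such lists.

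WT H3K27ac regions without H3K4me3 were followed into the KO lines. Of the 202 that overlapped a KO-only region, 91 had no H3K27ac in male KO calls, 45.0% (38.3 to 51.9%), where 33.8% of all 7905 such WT regions had none. In female KO calls 108 had none, 53.5% (46.6 to 60.2%), against 43.9% of all. With KO H3K27me3 lists scaled to WT reads the female KO share was 33.3% (20.6 to 49%). That value is under the 43.9%, but its interval holds it, so no direction was shown. The male KO share was then 38.5% (24.9 to 54.1%), over the 33.8%, which its interval also holds. WT H3K27ac regions that overlapped no H3K27me3 region were absent less often, in 31.6% (30.5 to 32.7%) from male KO calls and 40.4% (39.2 to 41.6%) from the female. Those that overlapped H3K27me3 of all 3 lists were absent in 44.3% (37.5 to 51.4%) and 60.8% (53.8 to 67.4%), and those in regions of female KO calls alone in 41.0 and 55.3%. The intervals for KO-only regions overlapped those of the other H3K27me3 sets, so no difference from those sets was shown. Widths were alike, with medians of 4.2 kb in KO-only regions and 3.8 kb over all such WT regions.

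In the other direction the KO H3K27ac regions were set against WT. Of the 183 female KO H3K27ac regions without H3K4me3 at KO-only regions, 46.4% (39.4 to 53.7%) had no WT H3K27ac, where 53.6% of all such female KO regions had none. For the 187 of male KO cells it was 46.5% (39.5 to 53.7%), against 52.1%. At regions of all 3 H3K27me3 lists it was 60.0% (53.1 to 66.5%) in female and 61.3% (55.5 to 66.7%) in male KO cells. In both lines KO H3K27ac without a WT call was thus less frequent at KO-only regions than at regions of all 3 lists. The intervals overlap in the female and not in the male. Regions of female KO calls alone were similar to KO-only regions, at 46.6% (41.6 to 51.7%) in female and 42.0% (37.7 to 46.4%) in male KO cells. The KO-only intervals also held the 53.6 and 52.1% of all such KO regions. Both comparisons share the WT H3K27ac list. WT also chose the sets, as regions of all 3 lists carry WT H3K27me3 and KO-only regions lack it, so their order is a description.

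KO-only regions also lay closer to H3K4me3 than the H3K27me3 regions without it as a whole, which had a median distance of 65.4 kb. The median distance to H3K4me3 of any line was 39.4 kb (36.4 to 42.6 kb), against 46.2 kb (44.2 to 48.4 kb) for regions of all 3 lists, 143.0 kb for male KO calls alone and 94.0 kb for WT alone. Regions of female KO calls alone were nearer, at 26.4 kb (25.4 to 27.4 kb). Distances to WT H3K27ac followed the same order, with medians of 50 kb for KO-only regions, 68.8 kb for all 3 lists, 260.4 kb for male KO calls alone and 25.4 kb for female KO calls alone. On both marks the KO-only regions lay between regions of female KO calls alone and regions of all 3 lists. Regions of female KO calls and WT did so too, at 43.5 kb from H3K4me3 and 58.8 kb from WT H3K27ac.

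The longest KO-only region was chr4:153772801-153912000, 139.2 kb wide and 85.4 kb from the nearest WT H3K27me3. Its H3K27me3 covered 138.6 kb with 7889 reads in female KO calls and 89.0 kb with 1797 reads in male KO calls. Neither KO list had H3K27ac there, while WT H3K27ac covered 12.8 kb with 315 reads. The next, chr3:121531601-121632400, was covered in full by female KO calls with 6179 reads and over 38.4 kb by male KO calls with 636 reads. It too had H3K27ac in WT only, over 4.0 kb. The other 3 were 92.4 kb on chromosome 18, 87.8 kb at chr7:129708801-129796600 and 86.0 kb at chr6:38024201-38110200, where male KO calls covered 69.6, 50.4 and 14.0 kb. Of these 5 longest regions, 2 thus carried H3K27ac in WT and in neither KO line.

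The 5 regions with the densest H3K27me3 in both KO lists were 36.6, 36.6, 22.2, 8.8 and 31.8 kb wide. The median over all KO-only regions was 9.4 kb. They were picked among the 1239 regions at least 5 kb long and covered to at least 50% by each KO list, by reads per kb over the median row of the list, which was 34.7 in the female and 16.6 in male KO calls. The first, chr1:90122201-90158800, had 89.0 reads per kb in female KO calls and 40 in male KO calls, which is 2.56 and 2.42 times those medians. H3K27ac covered 11.4 kb of it in female KO cells, none in male KO cells and 9.2 kb in WT. The second, chr4:119785401-119822000, had 66.2 reads per kb in female KO calls and 49.2 in male KO calls, 1.90 and 2.97 times the medians. There male KO cells themselves carried H3K27ac over 30.4 kb with 1753 reads, female KO cells carried it over 5.2 kb, and WT had none. It lies in chr4:115000001-120000000, where male KO cells also read higher than WT over bins held by all 3 lines. Their log2 ratios to WT there were 0.80 for H3K4me3 and 0.59 for H3K27ac, and those of female KO cells 0.37 and 0.26. The other 3, at chr19:41672201-41694400, chr7:105339601-105348400 and chr15:101745401-101777200, had 1.69 to 1.88 times the median in male KO calls. Of these 5 regions, 1 had no H3K27ac in any line, and the other 4 had it in female KO cells.

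The regions with the longest WT H3K27ac are those where a switch of marks would be looked for. At chr7:150319601-150388200, 68.6 kb wide, H3K27ac covered 3.8 kb in female KO cells and 10.2 kb in male KO cells, against 19 kb with 488 reads in WT. KO H3K27me3 covered 68.2 kb there in the female and 65.2 kb in the male. At chr1:172419201-172492800, female KO cells had H3K27ac over 3.8 kb and male KO cells none, against 15 kb in WT. At chr17:31882601-31944400 the order was different, with 8.8 kb in female KO cells, 22.0 kb in male KO cells and 19 kb in WT, and male KO H3K27me3 covered only 4.4 kb of the 61.8 kb. At chr8:126189201-126242000 female KO cells had more H3K27ac than WT, 27.6 kb against 14.4 kb, although their H3K27me3 covered the full 52.8 kb. The region chr8:97889201-97907400 had 3.6 kb in female KO cells, 5.4 kb in male KO cells and 16 kb in WT. At 3 of these 5 regions both KO lines had less H3K27ac than WT, but the regions were picked for long WT H3K27ac, which favours that order. Over all KO-only regions the cover was not lower in both KO lines, as given above.

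The regions farthest from WT H3K27me3 came in groups on chromosomes 14 and 4. Those at chr14:9019001-9043600, chr14:9145001-9166800 and chr14:9170001-9180400 lay 3025, 2902 and 2888 kb from the nearest WT row. They held 772, 815 and 469 reads in female KO calls, and 110, 93 and 118 in male KO calls. Those at chr4:53114201-53122800 and chr4:53123601-53154000 lay 1834 and 1803 kb from WT, next to each other. H3K27ac was nearly absent from all 5, with 0.4 kb in female KO cells at 1 of them and none in male KO cells or WT.

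**Figure D5:**
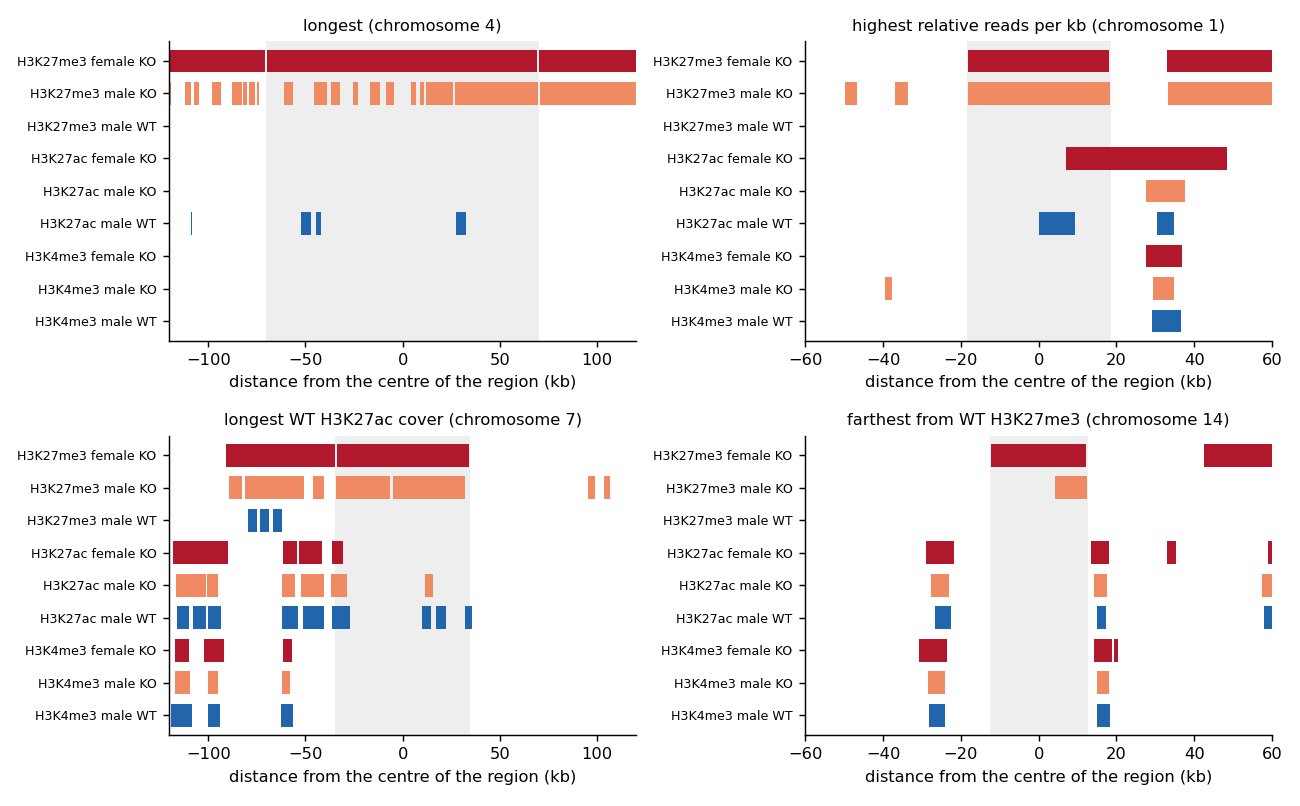
Called regions of 3 marks in 3 lines (rows) around 4 KO-only regions, as distance in kb from the centre of each region, which is shaded. The region on chromosome 4 is 139.2 kb wide with fragmented male KO H3K27me3 and WT H3K27ac of 12.8 kb, that on chromosome 1 is 36.6 kb, that on chromosome 7 is 68.6 kb with WT H3K27ac of 19 kb, and that on chromosome 14 is 24.6 kb.

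No gene is named at these coordinates, which are on build mm9 and counted from 1, because the annotation used here is of a later mouse assembly. For the same reason no sequence is printed.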

How the data were processed

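Each of 9 libraries (3 marks in 3 lines) had 1 list of enriched regions, deposited by the authors as chromosome, start, end and a last column. No header names this deposited column, and it was taken as the count of reads that the authors' software found per region, from its whole numbers and SICER's usual output. Bowtie 1.1.2 and SICER 1 were used on mm9, per the submitters' processing notes. The sources used here name no control library, threshold or total of reads. SICER joins neighbouring enriched windows, so widths depend on its gap setting and on depth. In the lists, rows lie on a grid of 200 bp.

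Tables were made with pandas 2.3.3, numpy 2.4.6 and scipy 1.17.1 under Python 3.11.15, and plots with matplotlib 3.10.9. Autosomal H3K27me3 rows that overlap or touch were merged, as bedtools 2.31.1 does, which gave the same 2424 regions. A count was spread evenly over its row. Chromosome lengths came from GenomeInfoDb 1.38.1. The rule was tested on simulated lists with planted regions. The regions and sets were chosen with earlier results of these data known. Regions are named by rule: the 5 longest, the 5 with the most reads per kb relative to the list median, by the lower of their 2 KO values (at least 5 kb long, 50% covered), the 5 with the longest WT H3K27ac and the 5 farthest from WT H3K27me3. Alternatives were other ways to merge rows, cut lists, count overlap, set margins and choose chromosomes. No test was run, since each group had 1 library. Chromosomes X and Y were not used here.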

Additional observations from a re-analysis of the deposited data

Results flagged for a closer look

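On chromosomes 6 and 15 the ratios of female and male KO to WT reads, over bins that all 3 lists held, had opposite signs for each of the 3 marks, though on chromosome 6 male KO cells were at or near the level of WT. These differences were not tested, and each rests on 1 library per mark and line. On chromosome 15 the log2 KO to WT ratio was lower in female than in male KO cells by 0.28 for H3K27me3, 0.24 for H3K4me3 and 0.18 for H3K27ac, written as differences of -0.28, -0.24 and -0.18. On chromosome 6 female KO cells had the higher ratio, with differences of 0.24 for H3K27me3, 0.18 for H3K4me3 and 0.16 for H3K27ac, while the male KO ratios there were -0.02 for H3K27me3 and close to 0 for the other marks. The share of regions of both KO lists that were absent from WT was 37.1% on chromosome 15 and 38.8% on chromosome 6, near the 35.1% of all autosomes.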

How the results depend on the processing

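Of 110 values recomputed under 11 alternatives, 72 stayed within their 95% interval or, for the number of regions, within 1.5 times. Some moves follow from the alternative itself. A margin around WT H3K27me3 can only raise the distance to WT, and H3K27ac over at least 10% of the region can only lower its shares. Cover of at least 50% by each KO list favours a higher male KO cover. For the other values that moved the cause was not tested, beyond the fewer regions each cut leaves. As reported, in order, were 2424 KO-only regions, a median width of 9.4 kb, male KO cover of 64.9%, H3K27ac at 8.83% (female KO), 7.84% (male KO) and 7.38% (WT), and a median of 23.7 kb to WT H3K27me3 with 17.9% within 5 kb. Rows at or above the median count of their list gave 1151 regions, 16.4 kb, 62.1%, 13.6, 12.7 and 11.6% with H3K27ac, 51.2 kb and 9.90%. KO lists scaled to WT reads gave 231 regions, cover of 75.9%, 22.5, 16.5 and 16% with H3K27ac and 9.96% on chromosome 4 (7.43% as reported). Of the WT H3K27ac regions followed there, 33.3% (20.6 to 49%) were absent from female KO calls, against 53.5% as reported. The 33.3% is under the 43.9% of all such regions, which its interval holds. Cover of at least 50% by each KO list gave 1526 regions, 8.0 kb, 80.0%, 7.34, 6.09 and 4.98%, 20.2 kb and 19.9%. Joining rows closer than 1 kb gave 10.6 kb, 61.4%, 29.6 kb and 12.2%. A margin of 5 kb around WT H3K27me3 gave 10 kb, 35.8 kb and 8.67% on chromosome 4. A margin of 5 kb around H3K4me3 gave H3K27ac at 7.22, 6.43 and 6.02%, and H3K27ac over at least 10% of the region gave 6.48, 4.95 and 5.07%. Without chromosome 4 the distance to WT was 21.2 kb. Chromosomes with even H3K4me3 reads, chosen after seeing the data, held 1184 regions. Leaving touching rows apart, also chosen later, and the promoter filter from WT alone moved none of these values. Female KO H3K27ac was the most frequent of the 3 lines as reported and under each alternative. The female KO H3K27ac list also covered the most of the autosomes, at 8.01%, against 5.87% in male KO cells and 4.40% in WT. The depth of the libraries is unknown from these lists, so how far it sets absence from WT was not tested. No paired analysis was possible because each group has 1 library and no shared replicate numbers.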

Other observations

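KO-only regions were spread over 364 of 505 windows of 5 Mb, and 84 windows with at least 10 of them held 1354 of the 2424. The window with the most, 39, was chr9:45000001-50000000, followed by 37 in chr11:50000001-55000000 and 30 each in chr13:50000001-55000000 and chr14:75000001-80000000. In chr4:115000001-120000000, 29 of 31 regions of both KO lists without H3K4me3 were absent from WT, and the log2 ratio of KO to WT reads over H3K4me3 held by all 3 lines was 0.37 in female KO cells and 0.80 in male KO cells. In the window on chromosome 9 the share was 55.7% and the ratios were 0.12 and 0.11. In chr6:135000001-140000000, 29 of 39 regions were absent from WT, with ratios of 0.37 and 0.03.

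Regions of both KO lists and not WT that did hold H3K4me3 in some line numbered 711. They were wider than the KO-only regions, with a median of 17.4 kb, and denser, with 46.4 reads per kb in female KO calls and 18.0 in male KO calls.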
